A study of Homo sapiens with 5 samples.

Results

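The genes that license, fire and copy DNA replication origins were examined in DAOY cells after depletion of the circular RNA circ_63706. The set holds 52 protein-coding genes, chosen by symbol for their roles at origins and forks, out of 19797 protein-coding genes and 60504 genes of all kinds in the expression table. They were read in 5 steps: licensing with 15 genes, firing with 8, polymerases and fork enzymes with 21, fork protection with 4 and dNTP supply with 4. DAOY is an established human cell line of sonic hedgehog (SHH) medulloblastoma, a childhood tumor of the cerebellum. Cells received 20 nM of a non-targeting control siRNA (si-NC, n = 2 libraries) or 20 nM of siRNA against circ_63706 (si-circ_63706, n = 3 libraries), and RNA was sequenced after 48 h. The groups share the cell line and the transfection. The study lists 2 siRNA sequences against circ_63706, and the labels do not say which one each library received. They also do not say whether the libraries of a group came from separate cultures, so p-values measure only the spread between these libraries.

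Replication begins in G1, when the origin recognition complex (ORC1 to ORC6), with CDC6 and CDT1, loads the ring-shaped MCM2 to MCM7 helicase onto DNA, and GMNN restrains CDT1 afterwards. In S phase the kinase CDC7 with its partner DBF4, together with MCM10, CDC45 and the GINS complex, turns the loaded rings into active helicases, and polymerases alpha, delta and epsilon copy the strands behind them. Many of these genes are known targets of E2F transcription factors, and they are abundant in cycling tumor cells, SHH medulloblastoma among them.

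Values were TPM, the level of a transcript per unit of its length, scaled so that each library sums to 1000000. All 52 members passed the minimum mean of 1 TPM, with means from 3.25 to 110 TPM and a median of 15.7 TPM, against a median of 6.73 TPM over the 12710 genes tested. Protein-coding genes took 29.02% of the TPM in both si-NC libraries and 25.2% to 26.9% in si-circ_63706 cells, and genes above 0 numbered 29253 to 29748 and 33905 to 34347. The median log2 fold change of all tested genes was -0.16 as deposited, so the members and lists were also read after centring. In it every library was shifted to the same median log2 ratio, and the median of all tested genes became 0.0024. Of 10 SHH medulloblastoma markers 9 reached a mean of 1 TPM, but GLI1, a defining SHH target, stayed between 0.29 and 0.49 TPM. Of the 4 leukocyte markers CD68 was at 24.7 to 32.8 TPM and PTPRC, CD3E and CD14 stayed at or below 0.16 TPM. The 3 neuron markers, mostly TUBB3, summed to 24.0 to 25.1 TPM in si-NC cells and 26.3 to 28.5 TPM in si-circ_63706 cells. The 6 granule neuron precursor markers summed to 26.1 to 27.7 TPM and 22.3 to 24.7 TPM. Most of that sum was ZIC1 and PAX6, and ATOH1, BARHL1 and MYCN stayed at or below 0.20 TPM. Marker sums for endothelium and glia stayed at or below 0.9 TPM. The 4 fibroblast markers summed to 149 to 158 TPM in si-NC cells and 194 to 208 TPM in si-circ_63706 cells. Nearly all of it was COL1A1 and COL1A2, while DCN stayed at or below 0.41 TPM and PDGFRB at 2.12 to 2.86 TPM. The part of these differences in the results below was not tested. circ_63706 has no gene-level value of its own, and its host gene PCNT was at 9.96 and 10.4 TPM in si-NC cells and at 8.80, 7.99 and 7.54 TPM in si-circ_63706 cells. That difference passed as deposited (adjusted p = 0.019) and not after centring (adjusted p = 0.279), and it does not check the depletion of the circle.

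The replication genes were lower in si-circ_63706 cells, most of them by less than 1.5-fold. The 52 members together summed to 1482 and 1512 TPM in si-NC cells and to 1158, 1170 and 1202 TPM in si-circ_63706 cells. As a share of protein-coding TPM, which does not depend on the non-coding part of the library, they took 0.511% and 0.521% in si-NC cells and 0.459%, 0.447% and 0.446% in si-circ_63706 cells. The groups did not overlap on either measure. In bulk RNA, fewer cells in S phase and less of these transcripts per cell cannot be told apart.

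At an adjusted p under 0.05 (limma, Benjamini-Hochberg over all tested genes), 41 of the 52 members (78.8%) were lower and 0 were higher, where 35.4% of all tested genes were lower and 4.16% were higher. After centring, 21 members (40.4%) were lower, against 13.7% of all tested genes, and 1 member, ORC2, was higher, against 13.1%. The median log2 fold change of the members was -0.32 as deposited and -0.16 after centring. It was 0.16 below that of all tested genes, a gap that centring cannot change because it shifts all genes alike. All 3 si-circ_63706 libraries lay below both si-NC libraries for 47 members (55.2% of all tested genes did so), ORC2 was apart in the other direction, and ORC4, ORC5, POLE and RFC1 overlapped. As deposited, 6 members passed the test with a fall of more than 1.5-fold, against 3.24% of all tested genes. They were MCM2, MCM6, MCM10, GINS1, LIG1 and TYMS. After centring MCM2, LIG1 and TYMS fell by more than 1.5-fold, and MCM6, MCM10 and GINS1 by less. The share of all tested genes past 1.5-fold after centring was not computed. The count of 41 members lower rests in part on the small control group. Leaving out either si-NC library lowered it, and lowered the count among all tested genes as well. Without si-NC 1 and si-NC 2 the members' median log2 fold change was -0.32 and -0.31, against -0.16 and -0.15 for all tested genes. Without si-circ_63706 1, 2 and 3 the count was 36 (69.2%), 34 (65.4%) and 39 (75.0%), against 29.7%, 26.6% and 33.7% of all tested genes. After centring it was 20 (38.5%), 14 (26.9%) and 12 (23.1%), against 11.9%, 9.38% and 9.0%. Leaving out either si-NC library lowered the centred count below each of these, and the count among all tested genes as well. Without si-NC 1 and si-NC 2 the members' centred median was -0.16 in each, against 0.0022 and -0.001 for all tested genes.

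**Figure D1:**
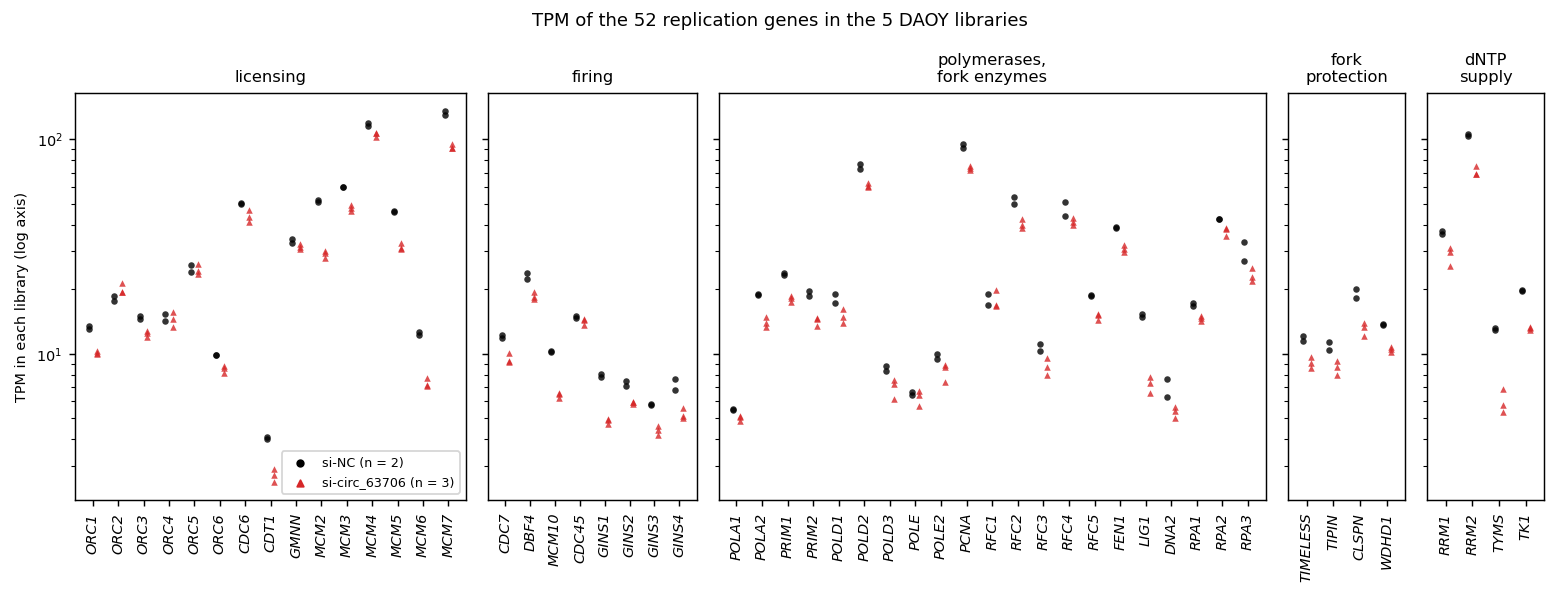
TPM of each of the 52 replication genes in each library on a log axis, by step; circles are si-NC (n = 2) and triangles si-circ_63706 (n = 3). The triangles lie below the circles for 47 genes, with the widest gaps at TYMS, LIG1 and MCM2.

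**Figure D2:**
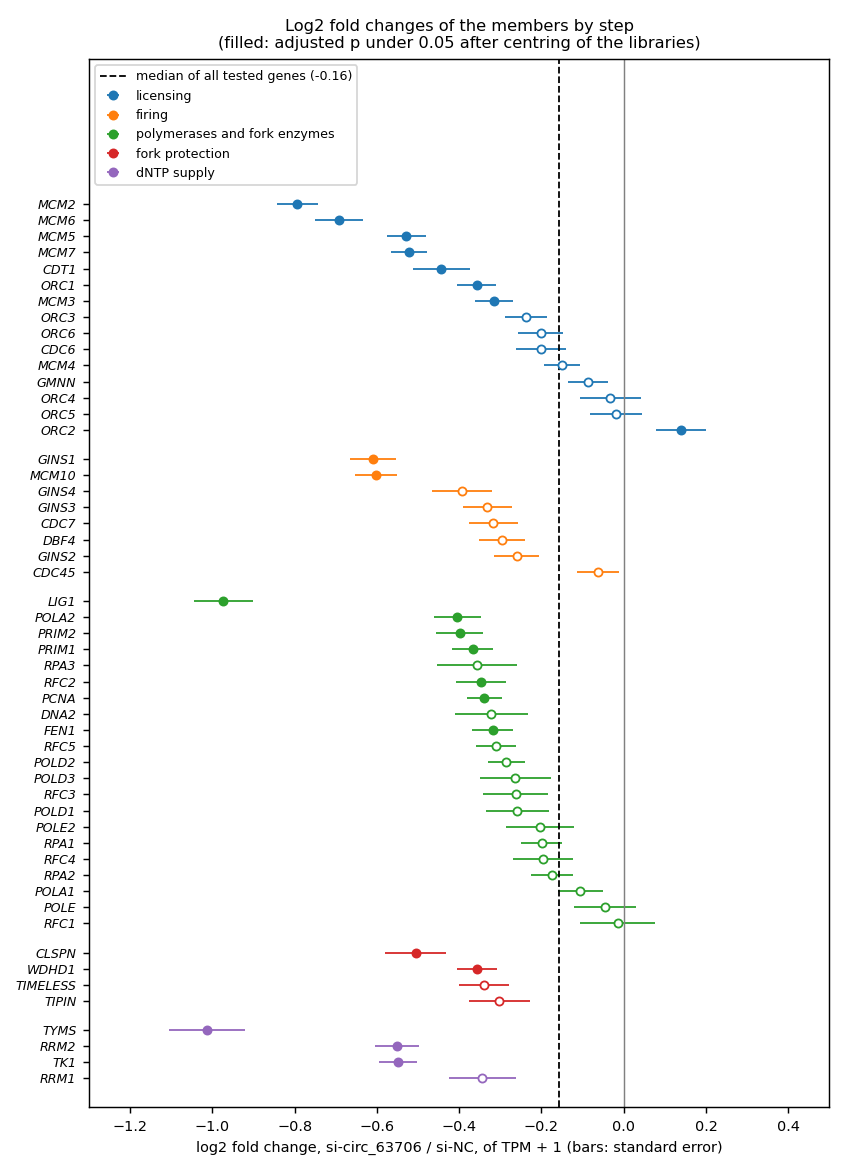
Log2 fold change of TPM + 1, si-circ_63706 over si-NC, for each member with its standard error, by step; the dashed line is the median of all tested genes (-0.16), and filled points passed an adjusted p of 0.05 after centring. The members span from -1.01 for TYMS to 0.14 for ORC2.

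Promoter sequences of the members were read first, because E2F sites are the best known feature that these genes share. RefSeq promoters on GRCh38.p14, from 250 bases before to 50 bases after a transcript start, were matched for 45 of the 52 members. The first start listed was used for each gene. For 11 members several starts are listed, and motif counts and distances were read at the first alone. MCM4, MCM5, GINS4, POLD3, DNA2, RPA2 and RPA3 were not matched. An E2F motif of 8 letters (TTTCCCGC, TTTCGCGC, TTTGCCGC or TTTGGCGC on either strand) was found in 19 of the 45 (42.2%), compared with 3.33% of all 27305 promoters and 5.58% of the 8831 promoters of tested genes. There were 25 matches in all, and 17 of them, in 16 genes, began within 60 bases of the start. The CCAAT box (CCAAT, either strand) was found in 25 of the 45 (55.6%) and in 35.7% of all promoters, and the cell cycle homology region of G2/M genes (TTTGAA or TTCGAA, either strand) in 3 (6.67%) and 16.6%. Among the promoters of tested genes these shares were 37.5% for CCAAT and 11.01% for the latter. The median GC content of the promoters was 65.7% for members and 65.3% for tested protein-coding genes. POLA1, POLE and POLE2 carry a match and did not pass the test. The 30 bases around the match nearest the start follow for 10 of the members that fell as deposited and for POLA1 and POLE. They are written 5′ to 3′ on the gene's strand with the matched letters in capitals.
TYMS, chr18:657603-657632, plus strand: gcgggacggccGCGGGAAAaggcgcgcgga
LIG1, chr19:48170440-48170469, minus strand: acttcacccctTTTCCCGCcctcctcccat
MCM2, chr3:127598402-127598431, plus strand: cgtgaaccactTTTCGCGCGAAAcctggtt
MCM6, chr2:135876511-135876540, minus strand: ggtcaggTTTGGCGCGAAAtctccagctcc
GINS1, chr20:25407667-25407696, plus strand: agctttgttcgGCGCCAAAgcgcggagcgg
MCM7, chr7:100101388-100101417, minus strand: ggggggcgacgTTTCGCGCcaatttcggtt
CLSPN, chr1:35769965-35769994, minus strand: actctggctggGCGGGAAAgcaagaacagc
CDT1, chr16:88803743-88803772, plus strand: ccagggcgcccGCGGGAAAtttggcgggaa
PCNA, chr20:5126663-5126692, minus strand: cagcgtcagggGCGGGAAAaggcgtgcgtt
CDC6, chr17:40287875-40287904, plus strand: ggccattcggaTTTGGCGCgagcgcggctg
POLA1, chrX:24693770-24693799, plus strand: gtcatcacaggGCGCCAAAcgcgcgtccgc
POLE, chr12:132687342-132687371, minus strand: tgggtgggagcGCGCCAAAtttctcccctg

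In MCM2 and MCM6 the capitals hold 2 overlapping matches, 1 on each strand, and MCM6 had 4 matches in its 300 bases. By GENCODE 29 the windows of MCM6, GINS1, PCNA and POLA1 lie outside the gene, those of CLSPN, POLE and TYMS span its first exon's outer end, and those of MCM2, LIG1, MCM7, CDT1 and CDC6 lie in non-coding exon sequence. Members with and without a match had similar medians. The median log2 fold change was -0.34 for the 19 members with the motif and -0.31 for the 26 without it, and after centring these values were -0.18 and -0.15. Over all tested genes with a promoter, the medians were -0.19 with and -0.16 without the motif. No test was made of these medians.

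**Figure D3:**
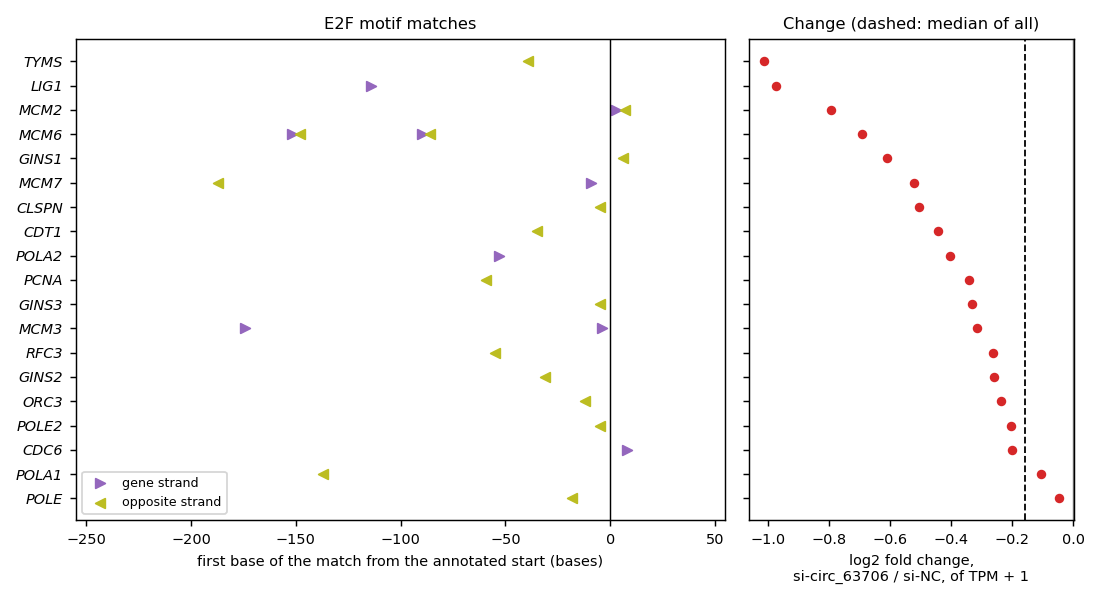
Left, position of each E2F motif match from the annotated start in the 19 members that hold one, in bases, with arrows for the strand; right, log2 fold change of TPM + 1 of the same genes, the dashed line marking the median of all tested genes. Genes are ordered by change, from TYMS (-1.01) to POLE (-0.046), and matches near the start occur throughout that order.

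In licensing 11 of 15 genes (73.3%) fell as deposited and 7 (46.7%) after centring, where 35.4% and 13.7% of all tested genes did. The median log2 fold change of the 15 was -0.24 and -0.079. All 6 MCM genes fell as deposited and 5 after centring, all but MCM4. Of the 6 ORC genes 3 fell as deposited, where 35.4% of all tested genes did, and 1 after centring (16.7%, against 13.7%). The TPM of the MCM genes summed to 420 in both si-NC libraries and to 309 to 321 in si-circ_63706 cells.

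MCM2, a helicase subunit that also binds histones, was at 50.9 and 52.1 TPM in si-NC cells and at 28.04, 30.3 and 29.5 TPM in si-circ_63706 cells. The groups were far apart, and the log2 fold change was -0.79 (SE 0.050, adjusted p = 0.00060), or -0.63 after centring (adjusted p = 0.00085). MCM6, its partner in the ring, stood at 12.2 and 12.7 TPM in si-NC cells and fell to 7.72, 7.09 and 7.14 TPM, with log2 fold changes of -0.69 as deposited and -0.53 after centring (adjusted p = 0.0011 and 0.0042). MCM5 went from 46.5 and 45.9 TPM to 31.2, 31.0 and 33.0 TPM, a log2 fold change of -0.53 and, after centring, -0.37 (adjusted p = 0.0013 and 0.0024). MCM7, the most abundant of the 6 in si-NC cells, fell from 135 and 131 TPM to 91.2, 91.1 and 94.8 TPM, with log2 fold changes of -0.52 as deposited and -0.36 after centring (adjusted p = 0.0011 and 0.0023). Exons of MCM7 share 392 bases, 8.94% of their length, with AP4M1 on the opposite strand, which was at 8.69 to 9.56 TPM in si-NC cells and 5.94 to 6.93 TPM in si-circ_63706 cells. MCM3 changed less, from 59.7 and 59.8 TPM to 47.6, 46.5 and 49.5 TPM, and still passed in both fits (adjusted p = 0.0037 and 0.025). MCM4 was the subunit that moved least. It was at 115 and 119 TPM in si-NC cells and at 107, 103 and 107 TPM in si-circ_63706 cells, a log2 fold change of -0.15 as deposited (adjusted p = 0.035) and 0.0089 after centring (adjusted p = 0.886).

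The proportions of the ring's subunits in the RNA also differed between the groups. The ratio of MCM2 to MCM4 was 0.442 and 0.437 in si-NC cells and 0.263, 0.295 and 0.276 in si-circ_63706 cells. The ratio of MCM6 to MCM4 went from 0.106 in both to 0.0724, 0.0689 and 0.0667. Both ratios were chosen after the values were seen and have no test.

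Among the origin recognition genes, ORC1, the subunit whose level is known to rise at the G1/S transition, was at 13.4 and 13.1 TPM in si-NC cells and at 9.95, 10.1 and 10.3 TPM in si-circ_63706 cells. Its log2 fold change was -0.36 (adjusted p = 0.0031), or -0.20 after centring (adjusted p = 0.020). ORC2, a core subunit, was at 17.7 and 18.5 TPM in si-NC cells and at 19.4, 19.4 and 21.4 TPM in si-circ_63706 cells. Its change was 0.14 as deposited (adjusted p = 0.112), where the other 51 members were negative, and 0.30 after centring (adjusted p = 0.0071), where 43 members were negative. ORC3 and ORC6 fell as deposited (log2 fold changes -0.24 and -0.20) and did not pass after centring, and ORC4 and ORC5, at -0.033 and -0.018, passed in neither fit and were positive after centring (0.13 and 0.14). The ORC1 to ORC2 ratio was 0.757 and 0.705 in si-NC cells and 0.514, 0.519 and 0.480 in si-circ_63706 cells, with no overlap (log2 difference -0.54). An exact two-sided permutation test over the libraries gave p = 0.1, the smallest that 2 against 3 libraries allow, and 0.15 after adjustment over the 9 ratios tested.

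The loading factor CDT1 was the least abundant member, at 4.07 and 4.02 TPM in si-NC cells and 2.71, 2.90 and 2.53 TPM in si-circ_63706 cells. Its log2 fold change was -0.44 (adjusted p = 0.0050), or -0.28 after centring (adjusted p = 0.040). Its inhibitor GMNN (geminin) was at 32.7 and 34.5 TPM and at 31.5, 30.8 and 32.4 TPM, a log2 fold change of -0.087 as deposited and 0.072 after centring that passed in neither fit (adjusted p = 0.196 and 0.235). The CDT1 to GMNN ratio was accordingly lower in each si-circ_63706 library, at 0.0861, 0.0943 and 0.0780 against 0.125 and 0.117 (log2 difference -0.49, exact permutation p = 0.1, adjusted p = 0.15). CDC6, the ATPase that works with CDT1, fell as deposited with a log2 fold change of -0.20 (adjusted p = 0.039) and not after centring (adjusted p = 0.460).

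Of the 8 firing genes 7 (87.5%) fell as deposited, CDC45 being the exception, where 35.4% of all tested genes did. After centring 2 of them (25.0% of the 8), MCM10 and GINS1, also fell, against 13.7% of all tested genes. The median log2 fold change was -0.32, or -0.17 after centring. MCM10, which activates the assembled helicase, was at 10.3 and 10.2 TPM in si-NC cells and at 6.20, 6.54 and 6.46 TPM in si-circ_63706 cells (log2 fold change -0.60, adjusted p = 0.0011; centred -0.44, adjusted p = 0.0026). GINS1 (PSF1), a subunit of the 4-part GINS complex, was at 8.08 and 7.77 TPM and at 4.69, 4.90 and 4.96 TPM (log2 fold change -0.61, adjusted p = 0.0013; centred -0.45, adjusted p = 0.0029). Both genes stood at about 60% of their si-NC means, 62.5% for MCM10 and 61.2% for GINS1.

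The other GINS subunits fell less, with log2 fold changes of -0.26 for GINS2, -0.33 for GINS3 and -0.39 for GINS4. GINS4 was at 6.76 and 7.64 TPM in si-NC cells and at 5.57, 5.11 and 5.03 TPM in si-circ_63706 cells, and none of these 3 passed after centring (adjusted p = 0.232, 0.060 and 0.082). The GINS1 to GINS2 ratio, which was chosen after the values were seen, went from 1.08 and 1.09 to 0.786, 0.821 and 0.849. CDC45, which sits with GINS on the helicase, was nearly level at 15.03 and 14.7 TPM in si-NC cells and 13.7, 14.6 and 14.3 TPM in si-circ_63706 cells (log2 fold change -0.062, adjusted p = 0.363; centred 0.097, adjusted p = 0.135).

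The S phase kinase and its activator moved together. CDC7 was at 11.9 and 12.3 TPM in si-NC cells and at 9.26, 10.1 and 9.15 TPM in si-circ_63706 cells (log2 fold change -0.32, adjusted p = 0.0086). DBF4 was at 22.3 and 23.7 TPM and at 17.9, 18.3 and 19.4 TPM (log2 fold change -0.30, adjusted p = 0.0085). Neither passed after centring (adjusted p = 0.102 and 0.052). Their ratio overlapped between the groups, at 1.88 and 1.93 against 1.94, 1.81 and 2.13 (log2 difference 0.036, exact permutation p = 0.7, adjusted p = 0.7).

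Of the 21 polymerase and fork enzyme genes 15 (71.4%) fell as deposited and 7 (33.3%) after centring. Over all tested genes these shares were 35.4% and 13.7%. The medians of the 21 genes were -0.29 and -0.13. LIG1, the DNA ligase that seals Okazaki fragments, changed most. It was at 14.8 and 15.3 TPM in si-NC cells and at 7.27, 7.75 and 6.57 TPM in si-circ_63706 cells, a mean that was 47.8% of the control mean. Its log2 fold change was -0.97 (SE 0.072, adjusted p = 0.00085), and -0.81 after centring (adjusted p = 0.0026).

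FEN1, the flap nuclease that acts just before LIG1, fell far less, from 39.2 and 38.5 TPM to 29.8, 32.2 and 30.9 TPM (log2 fold change -0.32, adjusted p = 0.0049; centred -0.16, adjusted p = 0.038). The ratio of LIG1 to FEN1 was 0.378 and 0.398 in si-NC cells and 0.244, 0.240 and 0.213 in si-circ_63706 cells. The ratio of LIG1 to PCNA, the sliding clamp that holds both enzymes, was 0.162 and 0.161 and then 0.101, 0.106 and 0.0878. These ratios were picked after the values were seen and were not tested. PCNA itself was at 91.4 and 95.0 TPM in si-NC cells and at 72.3, 73.3 and 74.9 TPM in si-circ_63706 cells (log2 fold change -0.34, adjusted p = 0.0026; centred -0.18, adjusted p = 0.011). DNA2, another flap nuclease, fell as deposited (log2 fold change -0.32, adjusted p = 0.030) and not after centring (adjusted p = 0.192). Without si-NC 2 its log2 fold change was -0.20 (adjusted p = 0.169), and it also failed the test without si-circ_63706 1 or 3 (0.073 and 0.062).

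Of the 9 polymerase genes 5 (55.6%) fell as deposited, where 35.4% of all tested genes did. After centring 3 of them, POLA2, PRIM1 and PRIM2, also fell (33.3% of the 9, against 13.7%). These 3 belong to polymerase alpha-primase, the enzyme that lays the primers. POLA2, its accessory subunit, was at 18.9 and 18.7 TPM in si-NC cells and at 13.3, 14.8 and 13.8 TPM in si-circ_63706 cells (log2 fold change -0.40, adjusted p = 0.0036; centred -0.25, adjusted p = 0.018). PRIM2, the large primase subunit, was at 18.6 and 19.6 TPM and at 13.5, 14.6 and 14.7 TPM (log2 fold change -0.40, adjusted p = 0.0038; centred -0.24, adjusted p = 0.011). PRIM1, the catalytic primase, had a log2 fold change of -0.37, or -0.21 after centring (adjusted p = 0.0034 and 0.025). The catalytic subunit POLA1 did not pass in either fit, at 5.45 and 5.52 TPM in si-NC cells and 4.88, 5.08 and 5.13 TPM in si-circ_63706 cells (log2 fold change -0.11, adjusted p = 0.172; centred 0.053, adjusted p = 0.444).

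POLD1, the catalytic subunit of the lagging strand polymerase delta, was at 17.3 and 18.9 TPM in si-NC cells and at 13.8, 14.9 and 16.2 TPM in si-circ_63706 cells (log2 fold change -0.26, adjusted p = 0.037; centred -0.10, adjusted p = 0.240). POLE, that of the leading strand polymerase epsilon, overlapped between the groups at 6.60 and 6.39 TPM and 5.68, 6.69 and 6.45 TPM (log2 fold change -0.046, adjusted p = 0.652; centred 0.11, adjusted p = 0.227). The POLE to POLD1 ratio was 0.382 and 0.337 in si-NC cells and 0.410, 0.449 and 0.398 in si-circ_63706 cells, higher in 3 of 3 libraries (log2 difference 0.22, exact permutation p = 0.1, adjusted p = 0.15), a difference of 0.13 without si-NC 2. Of the accessory subunits POLD2 fell as deposited (log2 fold change -0.29, adjusted p = 0.0050), while POLD3 (-0.26, adjusted p = 0.0501) and POLE2 (-0.20, adjusted p = 0.093) did not pass, and none of the 3 passed after centring. POLD2 was at an adjusted p of 0.057 after centring and passed after quantile normalization (0.036) and after rescaling of protein-coding genes alone (0.028).

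The RFC genes encode the loader of the PCNA clamp, and the RPA genes encode the protein that coats single-stranded DNA. Of RFC1 to RFC5, 3 fell as deposited (RFC2, RFC3 and RFC5) and RFC2 also after centring (log2 fold changes -0.35 and -0.19), 20.0% of the 5 where 13.7% of all tested genes were lower. RFC1, the large subunit, overlapped between the groups at 16.9 and 19.0 TPM and 16.7, 19.8 and 16.8 TPM (log2 fold change -0.015, adjusted p = 0.910; centred 0.14, adjusted p = 0.276). The PCNA to RFC1 ratio was 5.43 and 4.995 in si-NC cells and 4.33, 3.70 and 4.46 in si-circ_63706 cells (log2 difference -0.33, exact permutation p = 0.1, adjusted p = 0.15). RFC4 passed in neither fit. RPA1, RPA2 and RPA3 all fell as deposited, by 0.20, 0.17 and 0.36 on the log2 scale, and 0 of 3 passed after centring. Without si-NC 2 none of the 3 passed (adjusted p = 0.130, 0.149 and 0.157), and the log2 fold change of RPA3 was -0.21.

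All 4 fork protection genes fell as deposited and 2, CLSPN and WDHD1, also after centring. CLSPN (claspin), the adaptor that passes the stalled fork signal to CHEK1, was at 18.1 and 20.0 TPM in si-NC cells and at 14.0, 12.1 and 13.3 TPM in si-circ_63706 cells (log2 fold change -0.51, adjusted p = 0.0040; centred -0.35, adjusted p = 0.025). WDHD1, which couples the helicase to polymerase alpha, was at 13.8 and 13.6 TPM and at 10.2, 10.5 and 10.8 TPM (log2 fold change -0.36, adjusted p = 0.0034; centred -0.20, adjusted p = 0.017).

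TIMELESS and TIPIN form a complex that travels with the fork. TIMELESS was at 12.04 and 11.5 TPM in si-NC cells and at 9.63, 8.60 and 9.07 TPM in si-circ_63706 cells, and TIPIN at 11.4 and 10.4 TPM and at 7.98, 8.68 and 9.26 TPM. Their log2 fold changes were -0.34 and -0.30 (adjusted p = 0.0076 and 0.020), and neither passed after centring (adjusted p = 0.107 and 0.126). The CLSPN to TIMELESS ratio went from 1.51 and 1.74 to 1.45, 1.41 and 1.47 (log2 difference -0.17, exact permutation p = 0.1, adjusted p = 0.15), and the difference was -0.062 without si-NC 2.

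The dNTP supply genes had the lowest median of the 5 steps, -0.55 as deposited and -0.39 after centring. All 4 fell as deposited and 3 (75.0%) after centring, against 35.4% and 13.7% of all tested genes. TYMS, thymidylate synthase, which makes dTMP from dUMP, had the most negative log2 fold change of all members. It was at 12.97 and 13.2 TPM in si-NC cells and at 6.84, 5.37 and 5.78 TPM in si-circ_63706 cells, a mean that was 45.9% of the control mean. The log2 fold change was -1.01 (SE 0.092, adjusted p = 0.0013), and -0.85 after centring (adjusted p = 0.0042). Exons of TYMS share 967 bases, 39.2% of their length, with ENOSF1 on the opposite strand, which was itself lower, at 3.25 and 3.96 TPM and at 2.22, 2.33 and 2.43 TPM. Whether reads were counted by strand is not given in the sources used here, so the shares of the 2 genes in those bases are uncertain. For the members other than TYMS and MCM7, exons shared with a gene on the opposite strand that averaged at least 1 TPM took at most 6.7% of the length, and no pseudogene named after a member exceeded 0.21 TPM in any library.

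TK1, thymidine kinase, which makes dTMP by the salvage route, was at 19.6 and 19.8 TPM in si-NC cells and at 12.9, 13.4 and 13.2 TPM in si-circ_63706 cells (log2 fold change -0.55, adjusted p = 0.0011; centred -0.39, adjusted p = 0.0026). The TK1 to TYMS ratio was 1.51 in both si-NC libraries and 1.89, 2.49 and 2.28 in si-circ_63706 cells, with no overlap (log2 difference 0.55, exact permutation p = 0.2, adjusted p = 0.257). RRM2, the cell cycle regulated subunit of ribonucleotide reductase, was at 103 and 106 TPM in si-NC cells and at 75.5, 69.1 and 69.2 TPM in si-circ_63706 cells (log2 fold change -0.55, adjusted p = 0.0014; centred -0.39, adjusted p = 0.0094). RRM1, the large subunit, was at 36.1 and 37.4 TPM and at 25.7, 29.8 and 31.0 TPM (log2 fold change -0.34, adjusted p = 0.019; centred -0.19, adjusted p = 0.071). The RRM2 to RRM1 ratio overlapped, at 2.86 and 2.84 against 2.94, 2.32 and 2.23 (log2 difference -0.20, exact permutation p = 0.4, adjusted p = 0.45).

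**Figure D4:**
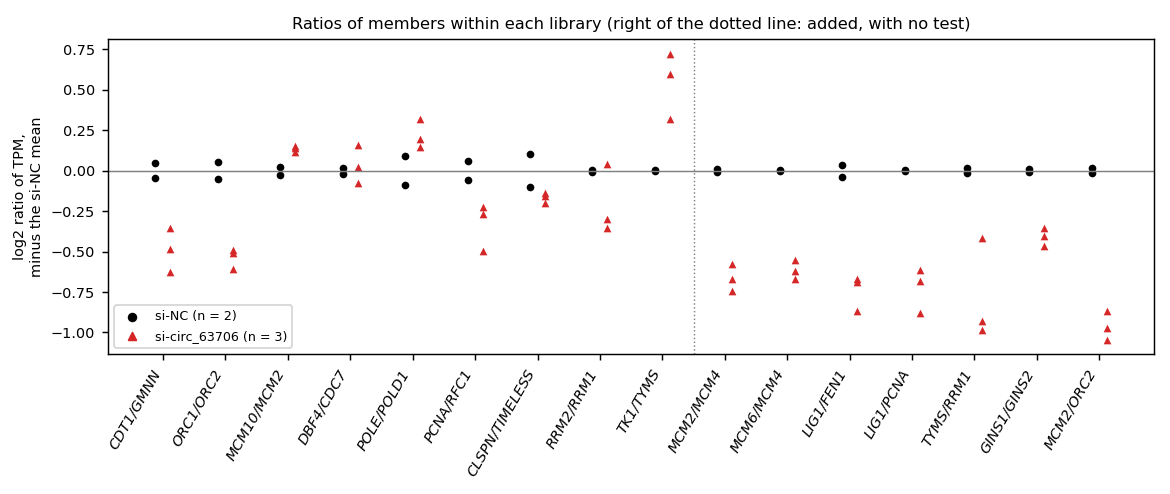
Log2 ratio of TPM between pairs of members within each library, minus the mean of the si-NC libraries; circles are si-NC (n = 2), triangles si-circ_63706 (n = 3), and the pairs right of the dotted line were added after the values were seen. MCM2/ORC2 and TYMS/RRM1 lie lowest and TK1/TYMS highest, while DBF4/CDC7 and RRM2/RRM1 overlap between the groups.

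Ratios within a library do not change when all genes of that library are rescaled. Of the 9 tested, 7 did not overlap between the groups, and none could pass at this number of libraries. The share of all gene pairs that separate in this way was not computed, so the count has no background. The MCM10 to MCM2 ratio, the remaining one, was 0.202 and 0.196 in si-NC cells and 0.221, 0.216 and 0.219 in si-circ_63706 cells (log2 difference 0.14, exact permutation p = 0.1, adjusted p = 0.15). Of the pairs added later, MCM2 to ORC2 went from 2.87 and 2.81 to 1.45, 1.56 and 1.38, and TYMS to RRM1 from 0.359 and 0.352 to 0.266, 0.180 and 0.187.

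The seed of an siRNA, bases 2 to 8 of its guide strand, can pair with other transcripts in their 3′ UTR. Sites for the seeds of the 2 siRNA sequences that the study lists against circ_63706 (TGAAGGA and CTGAAGG on the transcript strand) occurred in 5 of the 52 members (9.62%), DBF4, CDC6, MCM3, GINS2 and WDHD1, and in 21.4% of 11014 tested genes with a 3′ UTR. The median log2 fold change was -0.30 for those 5 and -0.32 for the other 47 members, and -0.14 and -0.16 after centring. The median 3′ UTR length was 2014 bases in the 5 and 663 bases in the 47.

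Genes near this pathway were counted in the same fit. Of all tested genes 35.4% were lower and 4.16% higher as deposited, and 13.7% and 13.1% after centring. Of 35 other replication genes, which act in initiation, chromatin assembly and nucleotide supply, 19 (54.3%) were lower and 1 higher as deposited. After centring 11 (31.4%) were lower and 4 higher. Their median log2 fold change was -0.26 as deposited and -0.099 after centring. The lowest was DONSON, a replisome factor needed for helicase assembly, at 10.9 and 10.7 TPM against 5.57, 4.91 and 5.27 TPM. Its log2 fold change was -0.92 (adjusted p = 0.00072), or -0.76 after centring (adjusted p = 0.0023). The highest was CDC25A, the phosphatase that activates CDK2, at 0.28 (adjusted p = 0.025), or 0.44 after centring (adjusted p = 0.0058). Of 34 G2/M genes 29 (85.3%) were lower and 0 higher as deposited, and 20 (58.8%) and 1 after centring. Their median was -0.35, or -0.19 after centring. The lowest were INCENP at -0.70 and CENPA at -0.69, or -0.54 and -0.53 after centring. PLK1 was highest as deposited at -0.033 (adjusted p = 0.623), and stood at 0.13 after centring (adjusted p = 0.097).

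Of 24 G1/S regulators 14 (58.3%) were lower and 2 higher as deposited, where 35.4% and 4.16% of all tested genes were. After centring 7 (29.2%) were lower and 2 higher, against 13.7% and 13.1%. Their median was -0.30, or -0.145 after centring. E2F1, an activator of replication genes, was at 6.80 and 6.21 TPM in si-NC cells and at 2.67, 2.40 and 2.46 TPM in si-circ_63706 cells (log2 fold change -1.10, adjusted p = 0.00063; centred -0.94, adjusted p = 0.0018). E2F2, another activator, was next lowest at -0.67 (adjusted p = 0.0060; centred -0.51). CDK6, the G1 kinase, was higher, at 16.2 and 14.9 TPM and at 22.2, 22.4 and 23.5 TPM. Its log2 fold change was 0.52 (adjusted p = 0.0017), or 0.68 after centring (adjusted p = 0.0013). E2F7 was the other gene that was higher, at 0.36 (adjusted p = 0.0086), or 0.52 after centring (adjusted p = 0.0037). E2F3, E2F4, E2F5 and E2F8 were lower as deposited, and E2F6 passed in neither fit. Whether the replication members differ from these lists was not tested.

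**Figure D5:**
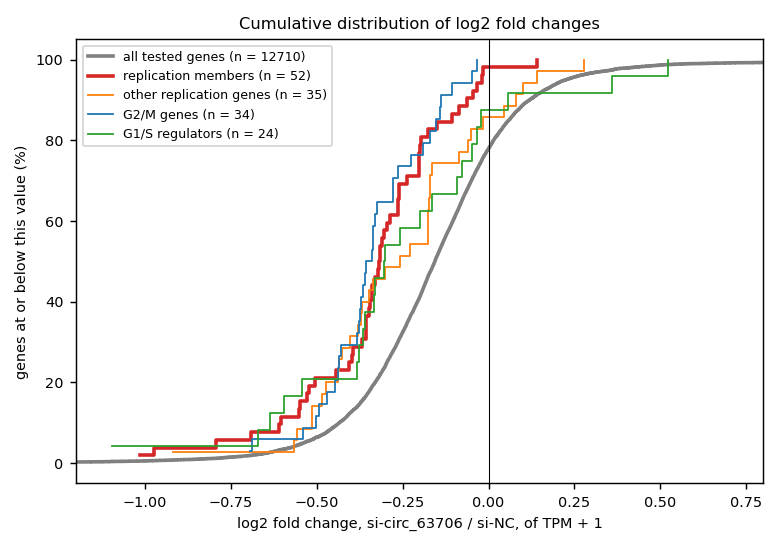
Cumulative share of genes (%) by log2 fold change of TPM + 1, si-circ_63706 over si-NC, for all tested genes, the 52 members and 3 other lists. The members' curve lies left of all tested genes, with medians of -0.32 and -0.16, and runs close to that of the 34 G2/M genes (median -0.35).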

How the data were processed

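RNA of DAOY cells was sequenced. The authors deposited 1 table of TPM values, to 2 decimals, for 5 libraries. The submitters' processing notes name cutadapt 2.3, STAR 2.7.0d, RSEM 1.3.1 and hg38. The gene annotation and strand setting are not given in the sources used here. TPM keeps no read depth, so the depth is unknown and no counting interval is given.

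limma 3.58.1 (R 4.3.3) was fitted without covariates to log2(TPM + 1) of genes with a mean of at least 1 TPM, with an intensity trend and Benjamini-Hochberg adjustment over all 12710. Fold changes on this scale understate the change of low genes. For centring, each library was shifted so that genes averaging at least 10 TPM had the same median log2 ratio. Ratios of TPM were compared by exact permutation. The paper's methods give no test fitted to TPM, so limma was chosen. Promoters and positions came from RefSeq and GENCODE 29.

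The members and lists were chosen with earlier results of these data known. Named in each step were the 3 lowest and the highest fold changes, members over 1.3-fold lower after centring and members of the 9 ratios. From other lists the 2 lowest and the highest were named, and E2F3 to E2F8 were added. 1 gene that this rule names is not reported here. Alternatives were other scalings, minimums, pseudocounts, moderation, weights, a replicate block and leaving out each library. Group sizes of 2 and 3 were too small to look for outlying libraries.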

Additional observations from a re-analysis of the deposited data

How the results depend on the processing

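Counts depended most on how the libraries were scaled. After centring, quantile normalization and rescaling of protein-coding genes alone, the replication members lower at an adjusted p under 0.05 (41 as deposited) numbered 21, 21 and 26, with 1 higher in each, their median log2 fold change (-0.32) was -0.16, -0.16 and -0.18, and all tested genes lower (4504) and higher (529) numbered 1737 and 1671, 1682 and 1584, and 2419 and 1591. In the same order, members lower were 7, 7 and 7 in licensing, 2, 2 and 5 in firing, 7, 7 and 8 among polymerases and fork enzymes, and 2, 2 and 2 in fork protection. With no minimum TPM, 2597 genes were lower and 292 higher of 41817 tested, and 9 polymerase and fork enzyme genes were lower. The same 3 scalings turned positive the log2 fold changes of ORC4 (0.13, 0.14 and 0.12), ORC5 (0.14, 0.15 and 0.13), GMNN (0.072, 0.068 and 0.063), CDC45 (0.097, 0.11 and 0.085), POLA1 (0.053, 0.068 and 0.026), POLE (0.11, 0.12 and 0.095) and RFC1 (0.14, 0.15 and 0.14), and centring and protein-coding rescaling that of MCM4 (0.0089 and 0.0017), all at an adjusted p over 0.05. RFC1 was also positive with array quality weights (0.051).

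Leaving out each library in turn gave 25 to 39 members lower (after centring 11 and 10 without si-NC 1 and 2, and 20, 14 and 12 without si-circ_63706 1, 2 and 3), 7 to 11 in licensing, 3 to 7 in firing, 9 to 13 among polymerases and fork enzymes, 2 to 4 in fork protection and 3 to 4 in dNTP supply, and 1960 to 4289 genes lower and 208 to 578 higher among all tested. Log2 fold changes crossed 0 for ORC4 (-0.085 to 0.023), ORC5 (-0.071 to 0.034), POLE (-0.087 to 0.014) and RFC1 (-0.098 to 0.068), as did the DBF4 to CDC7 log2 ratio (-0.025 to 0.090). The other 8 ratios kept their direction in every such setting and with TPM + 1. Their size moved by over 1.5 times for CLSPN to TIMELESS (-0.27 to -0.062), POLE to POLD1 (0.13 to 0.31) and RRM2 to RRM1 (-0.33 to -0.13). Calls of single members were lost for 15 without si-NC 1, 16 without si-NC 2, and 5, 8 and 2 without si-circ_63706 1, 2 and 3. CDC6, POLD1 and RFC3 were lost in 4 of these 5 settings, and without si-NC 2 the log2 fold changes of RPA3 (-0.36) and DNA2 (-0.32) were -0.21 and -0.20. The other planned settings left the member count at 37 to 42, apart from 30 with no minimum and 36 with the block. The cause of these changes was not tested.

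The labels do not say whether equally numbered libraries of the groups were paired. Correlations of their deviations from the group means were 0.014 and 0.026, so no shared replicate effect was seen. These values cannot settle the pairing, because the deviations of the si-NC libraries mirror each other. With a replicate block, which leaves si-circ_63706 3 without a partner, 36 members were lower, 3560 of all tested genes were lower and 325 higher, and the log2 fold change of RFC1 was 0.021.

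Read depth is unknown. With 2 control libraries, leaving out either lowered the count of members called lower by over 1.5-fold, and the smallest p of a ratio is 0.1.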
